A study of Mus musculus with 14 samples.

Results

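Imprinted control regions are stretches of DNA whose CpGs are methylated on the allele of 1 parent and free of methylation on the other. To read them on each histone mark, 9 windows named for imprinted genes were set by position on the mm9 mouse genome, by a rule in which no measured value enters, although earlier results of these data were known when they were chosen: Peg10 (chr6:4690001-4705000), Mest (chr6:30680001-30695000), Peg3 (chr7:6675001-6690000), Snrpn (chr7:67140001-67155000), H19 (chr7:149760001-149775000), Kcnq1ot1 (chr7:150475001-150490000), Igf2r (chr17:12930001-12940000), Impact (chr18:13125001-13140000) and Nnat (chr2:157380001-157395000). Their members are the 200-bp bins that lie wholly inside, of which 509 held at least 1 CpG count, out of 7282466 such bins of the whole genome. The data were ChIP-BS-seq libraries, in which DNA is precipitated with an antibody against H3K4me1 or H3K27ac and then treated with bisulfite, so that 5mC is read on the DNA that carries the mark. All cells came from R1, a male mouse embryonic stem cell (ESC) line. The ESCs had been grown for 2 days without the inhibitors of MEK and GSK3 (2i), the RA cells for 4 days with 1 µM retinoic acid, and the XEN cells, of extraembryonic endoderm type, for 9 days with 0.1 µM retinoic acid and Activin A. Each mark had 1 library in ESCs, 1 in RA cells and 2 replicate libraries in XEN cells, and the retinoic acid treatment of 4 days gives a mixture of differentiated states. The cell types were not checked against marker transcripts here. As a single line was used, and the reads were not split by parental allele here, a 5mC of a window is an average over both alleles of the DNA that the antibody pulled down.

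At an imprinted control region the methylated allele is held in that state through early development by ZFP57, which binds a methylated hexamer and recruits the co-repressor TRIM28, and by the maintenance methyltransferase DNMT1, while the unmethylated allele is open to transcription factors. The promoters of Peg10, Mest, Peg3, Snrpn, Kcnq1ot1, Impact and Nnat take their methylation from the oocyte and are active on the paternal allele. The control region in an intron of Igf2r is also methylated on the maternal allele and holds the promoter of the noncoding RNA Airn. The H19 region differs in that sperm DNA carries the methylation and that CTCF binds the maternal allele. H3K27ac marks active promoters and enhancers, and H3K4me1 marks enhancers and the flanks of active promoters.

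To show the CpGs at which 5mC can be read, 4 promoters of genes that name the windows are given as examples, from RefSeq, with CpGs in capitals. They span 250 bases before to 50 bases after the start and are on another build than the bins, so they were not placed on single bins and no 5mC value belongs to them.
Mest promoter (GRCm38.p6 chr6:30737800-30738099, plus strand): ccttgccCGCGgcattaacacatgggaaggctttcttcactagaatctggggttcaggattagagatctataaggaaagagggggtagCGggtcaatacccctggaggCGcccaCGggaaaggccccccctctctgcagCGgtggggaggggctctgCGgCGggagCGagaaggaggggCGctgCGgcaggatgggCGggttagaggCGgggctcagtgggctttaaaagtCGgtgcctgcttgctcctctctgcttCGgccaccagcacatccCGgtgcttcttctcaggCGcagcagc
Peg3 promoter (GRCm38.p6 chr7:6730370-6730669, minus strand): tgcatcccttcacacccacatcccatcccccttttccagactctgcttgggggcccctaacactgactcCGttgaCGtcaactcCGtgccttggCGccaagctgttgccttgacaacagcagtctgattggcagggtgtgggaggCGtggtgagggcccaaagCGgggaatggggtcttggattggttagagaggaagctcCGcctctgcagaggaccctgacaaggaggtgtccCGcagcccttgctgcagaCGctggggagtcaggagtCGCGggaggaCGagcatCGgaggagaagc
Kcnq1ot1 promoter (GRCm38.p6 chr7:143296498-143296797, minus strand): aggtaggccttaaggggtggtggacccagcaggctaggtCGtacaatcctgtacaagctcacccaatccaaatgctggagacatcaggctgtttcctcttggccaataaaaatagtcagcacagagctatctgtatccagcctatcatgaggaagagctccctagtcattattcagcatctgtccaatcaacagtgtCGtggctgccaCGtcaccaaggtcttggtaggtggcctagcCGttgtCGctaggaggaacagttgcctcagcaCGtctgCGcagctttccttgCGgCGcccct
Nnat promoter (GRCm38.p6 chr2:157559828-157560127, plus strand): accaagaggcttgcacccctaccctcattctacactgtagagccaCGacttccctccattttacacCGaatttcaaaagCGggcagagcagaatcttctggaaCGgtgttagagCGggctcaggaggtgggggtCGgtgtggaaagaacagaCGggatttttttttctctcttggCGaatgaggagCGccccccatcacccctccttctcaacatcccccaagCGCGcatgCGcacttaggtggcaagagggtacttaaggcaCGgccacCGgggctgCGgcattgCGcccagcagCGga
These promoters held 17 CpGs for Mest, 13 for Peg3, 9 for Kcnq1ot1 and 17 for Nnat. Not all promoters of genes at these windows were as rich in CpGs. The 4 entries of Snrpn held 2 to 7, that of Airn 3 and another start of Mest 8. Of all 32851 promoters of this length, the median held 7 CpGs, and 31.4% held at least 17. The hexamer TGCCGC that ZFP57 is known to bind, which itself contains a CpG, was found 2 times in the Mest promoter and 1 time in the Nnat promoter when both strands were searched. It was not found in these stretches of Peg3 and Kcnq1ot1, and 11.6% of all promoters held it.

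The libraries held 32305709 to 58803653 CpG counts in ESCs and RA cells and 12147115 to 31345707 in XEN cells, of which 3925 to 13794 fell in the windows. A bin was called covered with at least 30 CpG counts, which 89 to 98 of the 509 bins reached in each library of ESCs and RA cells and 29 to 58 in each XEN library. Only bins with at least 4 counts were listed for XEN cells. For these cells the marks in the file names and in the labels were exchanged, and the coverage also went against the labels. Over 293304 bins with at least 4 counts in all 8 libraries, the counts of the XEN libraries labelled H3K4me1 had a Spearman correlation of 0.576 and 0.589 with H3K27ac of RA cells, but of 0.294 and 0.293 with H3K4me1. Those labelled H3K27ac had a correlation of 0.681 and 0.721 with H3K4me1 of RA cells and of 0.363 and 0.359 with H3K27ac. The labels were kept, each XEN library is named by its label, and comparisons of XEN with other cells are given both ways.

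In ESCs, DNA with H3K27ac was nearly free of 5mC in most windows, and DNA with H3K4me1 was more methylated. The 5mC of the Kcnq1ot1 window was 2.63% in H3K27ac and 23.5% in H3K4me1. That of Snrpn was 5.85% in H3K27ac and 18.0% in H3K4me1, that of Peg3 was 6.11% and 20.4%, and that of Impact was 6.73% and 28.6%. The Peg10 window had 7.32% in H3K27ac and 21.9% in H3K4me1, Nnat had 8.49% and 21.0%, and Mest 12.9% and 24.1%. These 7 windows were higher in H3K4me1, with a median difference over all 9 windows of 12.5 percentage points. The other two did not follow when all counts of a window were summed. At Igf2r the 5mC was 19.8% (95% interval 16.0 to 24.0) in H3K4me1 and 22.2% (17.7 to 27.1) in H3K27ac, within counting error. Igf2r was higher in H3K4me1 when only covered bins were used, at 15.5% on 6 bins and 8.14% on 5, of which 1 was shared. The window was also higher in H3K4me1 without its outer 2500 bp on each side (16.8% and 13.1%). At H19 it was 36.1% (30.9 to 41.7) in H3K4me1 and 67.2% (58.6 to 74.9) in H3K27ac. Over 116613 tiles of 15 kb across the genome with at least 30 counts in both libraries, 34.9% were higher in H3K4me1. With 1 library for each mark and cell state there is no replicate check, and the exact (Clopper-Pearson) intervals cover counting error only and are too narrow where CpGs shared a read.

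After retinoic acid, the 5mC of DNA with H3K4me1 was higher in all 9 windows, by 5.80 to 37.5 points, and that of DNA with H3K27ac stayed under 21% in every window but H19. The order of the windows in H3K4me1 changed with treatment. Igf2r went from 19.8% in ESCs to 57.2% (53.7 to 60.7) in RA cells, Peg3 from 20.4% to 49.7%, Peg10 from 21.9% to 47.5% and Kcnq1ot1 from 23.5% to 48.1%. Without the outer 2500 bp on each side Igf2r was at 16.8% and 32.6%, below Peg3 (44.3%) and Peg10 (43.2%) in RA cells, so its place as the highest rests on the edges of the window. Smaller differences were seen at H19, from 36.1% to 53.9%, and Nnat, from 21.0% to 34.2%. The lowest were at Snrpn, from 18.0% to 24.2%, Impact, from 28.6% to 34.4%, and Mest, from 24.1% to 29.9%. At these windows H3K4me1 was lower in RA cells when only covered bins were used, but those were partly or wholly other bins in each state. At Mest all 6 bins covered in both states were higher in RA cells, by 1.56 to 30.6 points. At Impact all 6 were higher too, by 3.07 to 34.6 points, and Snrpn had no such bin. In the genome, 83.4% of 111241 tiles were higher in RA cells, with a median of 11.0 points, beside 17.7 points over the windows, so a higher value in H3K4me1 was common to most of the genome.

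In H3K27ac the difference between RA cells and ESCs was within 10 points in every window but H19. The 5mC was 20.9% at Mest, 16.0% at Igf2r, 14.1% at Peg10, 11.5% at Peg3, 9.35% at Impact, 9.25% at Nnat, 6.19% at Snrpn and 5.84% at Kcnq1ot1. Igf2r had been at 22.2% in ESCs, so it was 6.11 points lower in RA cells, where the other 7 of these were higher by 0.344 to 8.03 points. Across the genome 53.5% of 123670 tiles were higher in H3K27ac of RA cells and 46.3% lower. The median was 0.971 points over the tiles and 2.62 over the windows. The small differences of the windows turned with the way a window was averaged. With covered bins alone Igf2r was higher in RA cells, at 8.14% and 10.7% (7.53% and 18.0% as a mean over bins), and Snrpn was lower, at 3.07% and 2.04%. The mean over covered bins also turned Mest, to 4.44% and 3.82%. The covered bins were not the same ones in ESCs and RA cells, with 5 and 15 at Igf2r and 11 and 5 each at Snrpn and Mest. In the bins covered in both states Igf2r was lower in RA cells, at 8.14% and 3.26%. There Snrpn was higher, at 1.28% and 2.04%, as was Mest, at 0.768% and 1.95%. Without the outer 2500 bp Snrpn (4.75% and 4.44%) and Nnat (8.49% and 7.18%) were lower in RA cells. H19 had 51.5% (44.8 to 58.2) in RA cells on 227 counts, and 67.2% on 137 counts in ESCs. In RA cells 8 windows were higher in H3K4me1 than in H3K27ac, by 9.00 points at Mest and by up to 42.2 points at Kcnq1ot1. H19 had 53.9% (47.0 to 60.6) in H3K4me1, 2.34 points more and within counting error, and 45.2% against 49.4% without the outer 2500 bp. Across the genome 67.5% of 119976 tiles were higher in H3K4me1.

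**Figure D1:**
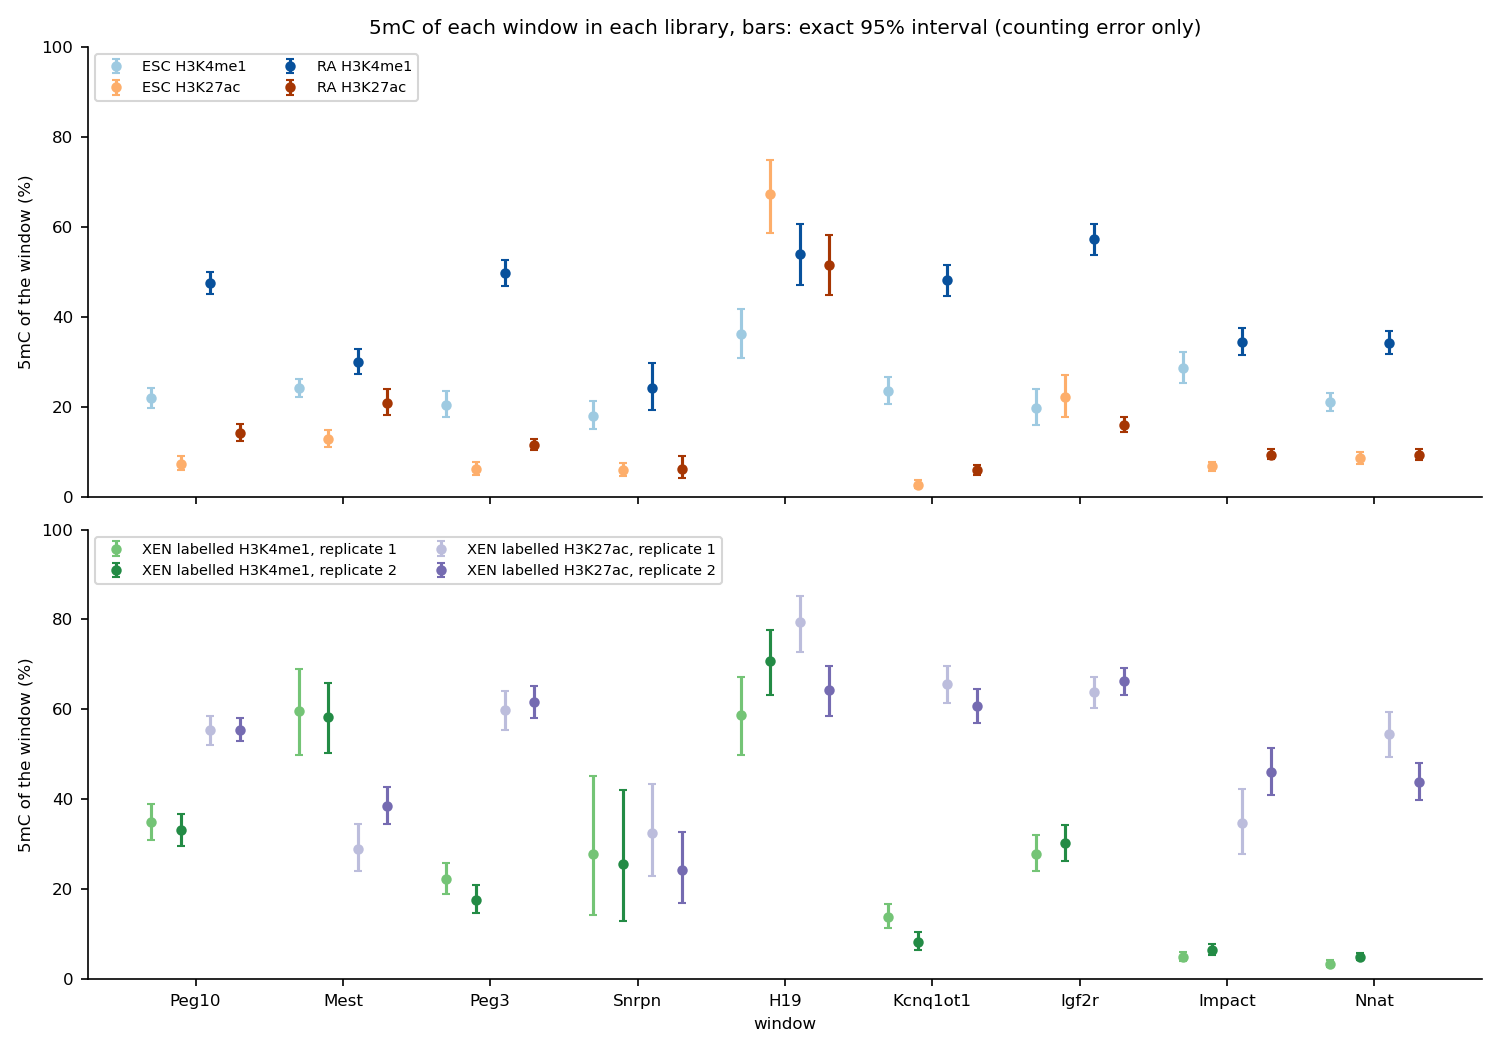
5mC (%) of each window, as methylated over all CpG counts, in the 4 libraries of ESCs and RA cells (upper panel) and the 4 XEN libraries (lower panel), with exact 95% intervals that cover counting error only. In the upper panel H3K27ac lies under 23% everywhere but at H19, where it is 67.2% in ESCs and 51.5% in RA cells, and in the lower panel the libraries labelled H3K4me1 are the lower ones except at Mest, where they are the higher ones, and at Snrpn and H19, where the marks overlap.

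Within a window, 5mC was not even. In every window but H19 most bins with deep H3K27ac formed a trough near 0%, with more methylated bins elsewhere in the window. Some deep bins lay outside it. In H3K27ac of RA cells chr17:12931201-12931400 at Igf2r had 69.6% of 56 counts. At Impact chr18:13130001-13130200 had 42.1% of 57 counts in H3K27ac of ESCs and 64.2% of 53 in RA cells. In the Kcnq1ot1 window, whose promoter makes a long noncoding RNA that silences neighbouring genes in cis, 8 consecutive covered bins of the H3K27ac library lay under 20% in ESCs (chr7:150481001-150482600), with 0.432% over 1158 counts. In RA cells 8 covered bins did so (chr7:150480601-150482400), with 1.38% over 1665 counts. At Peg3, which encodes a zinc finger protein, the run held 13 covered bins in ESCs (chr7:6680201-6684000, 1.69%) and 19 in RA cells (chr7:6680001-6684600, 3.64%). The run at Impact, which encodes a regulator of the kinase GCN2, held 13 covered bins in ESCs (chr18:13130401-13133400, 1.99%) and 14 in RA cells (chr18:13130601-13133400, 1.81%). The place of these runs was nearly the same before and after treatment.

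At Peg10, a gene derived from a retrotransposon and needed for the placenta, the run was chr6:4696201-4699000 in ESCs (11 covered bins, 3.00%) and chr6:4696001-4698800 in RA cells (12 covered bins, 4.42%). At Snrpn, which encodes a protein of the spliceosome, it was chr7:67148001-67152200 in ESCs (10 covered bins, 2.00%) and ended earlier, at 67150000, in RA cells (5 covered bins, 2.04%), where fewer H3K27ac counts fell in the window. In the intron of Igf2r, which encodes the receptor that clears IGF2, it went from 3 covered bins in ESCs (chr17:12934401-12935000, 5.38%) to 10 in RA cells (chr17:12934201-12936200, 3.74%). Mest, which encodes an enzyme-like protein of the hydrolase fold, had 11 covered bins under 20% over 8000 bp in ESCs and 5 over 3400 bp in RA cells, with bins in between that were not covered. Nnat, which encodes a small membrane protein and lies in an intron of Blcap, had 15 over 8800 bp and 12 over 7200 bp, in a pair of separate troughs. The promoters of Nnat (chr2:157559828-157560127) and Blcap (chr2:157566312-157566611) also lie apart on GRCm38.p6. The trough with deep H3K27ac is the one further along the chromosome, on the side where the Blcap promoter lies. As the bins are on another build, no trough was placed on a promoter. Values of that trough may therefore belong to Blcap and not to the promoter of Nnat. The H19 window had no covered bin in either H3K27ac library.

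**Figure D2:**
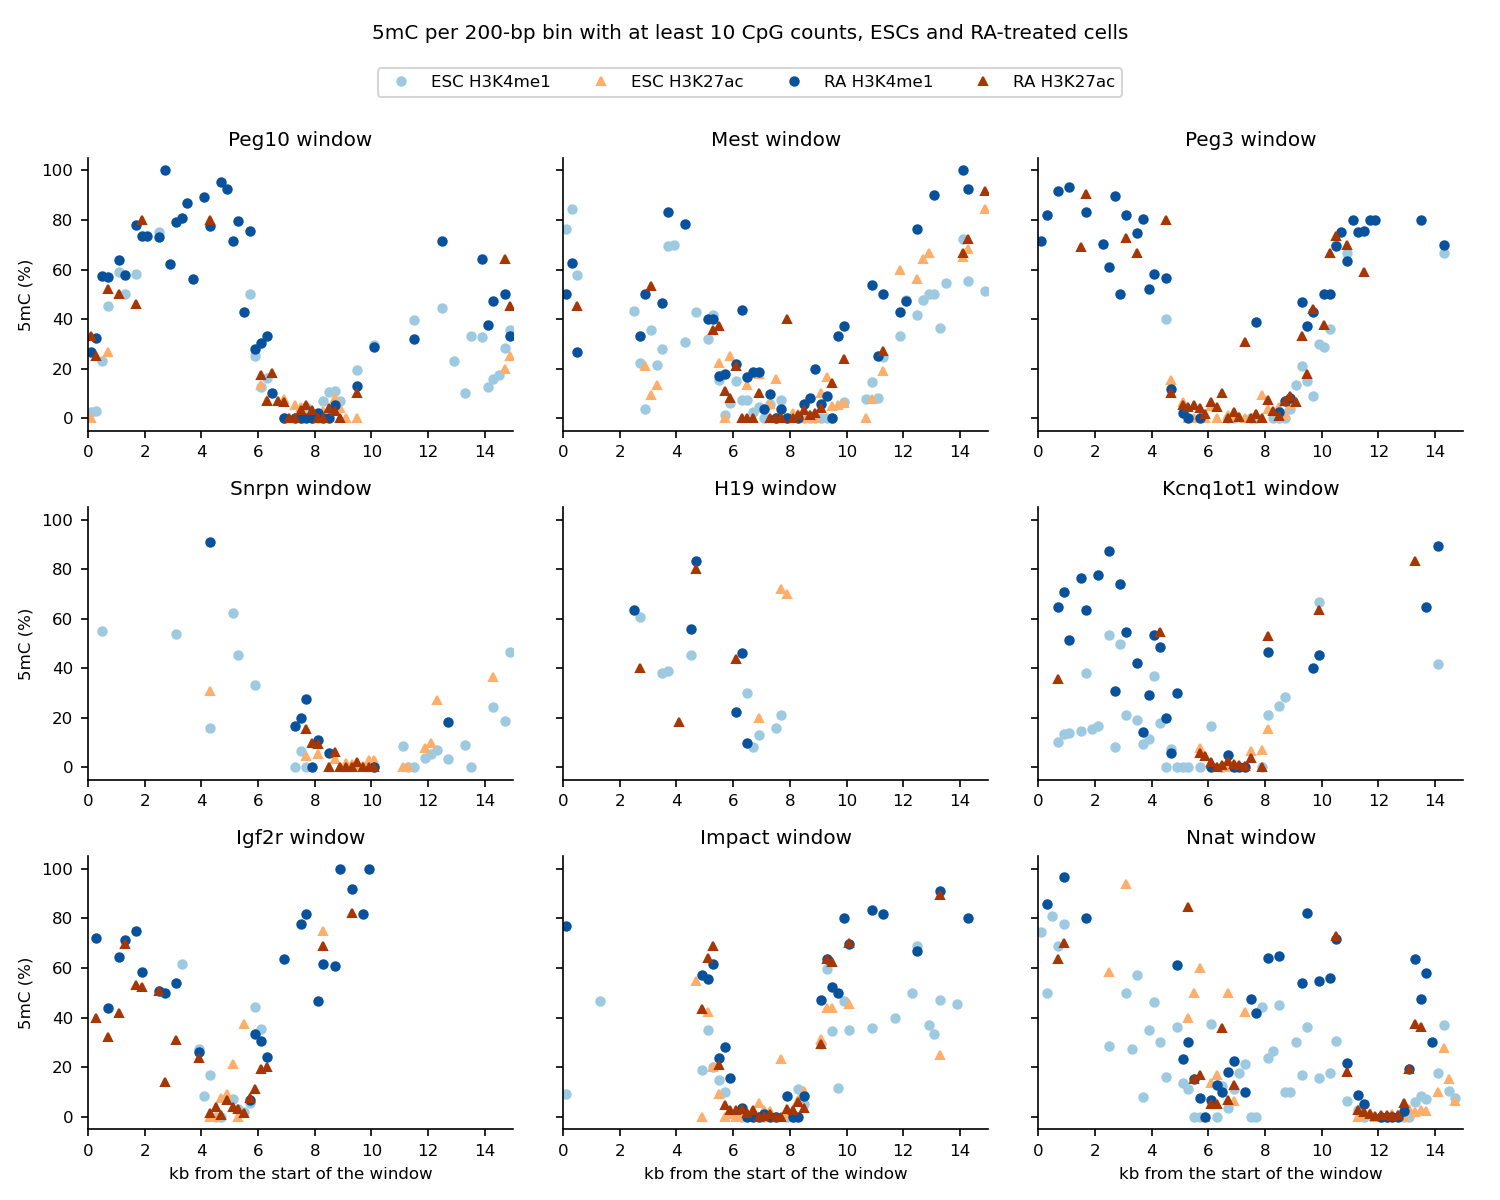
5mC (%) of each 200-bp bin with at least 10 CpG counts against its distance (kb) from the start of the window, in H3K4me1 (circles) and H3K27ac (triangles) of ESCs (pale) and RA cells (dark). Each window but H19 shows a trough near 0% in both marks, and the flanks of Peg10, Peg3, Kcnq1ot1, Impact and Nnat are higher in H3K4me1 of RA cells than of ESCs.

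To ask what the trough bins had on the other mark, bins were divided by H3K27ac counts alone. The 68 window bins with at least 30 counts in H3K27ac of both ESCs and RA cells are called acetylated, and the other 441 are called the rest. Not all of the 68 lie in a trough, as with chr18:13130001-13130200 at Impact. In acetylated bins the 5mC of H3K27ac was 1.96% (1.67 to 2.29) in ESCs and 2.77% (2.45 to 3.11) in RA cells. That of H3K4me1 in these bins was 4.79% (3.68 to 6.11) in ESCs and 7.41% (6.19 to 8.79) in RA cells, and this last value was 12.8% with at least 20 counts and 4.56% with at least 60. In the rest, H3K27ac had 25.3% and 33.9%, and H3K4me1 26.2% and 51.2%. So most of the methylated H3K4me1 DNA of the windows lay outside the acetylated bins. In the 81592 acetylated bins of the whole genome, H3K4me1 had 8.55% in ESCs and 21.8% in RA cells, and H3K27ac 2.33% and 5.08%. The values of the windows were lower than these on each mark, by a margin that was not tested, but with at least 60 counts H3K27ac of ESCs had 1.30% in the windows and 1.21% over the genome.

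The acetylated bins held few H3K4me1 counts in some windows, which limits how well the marks can be set side by side there. At Kcnq1ot1, 7 acetylated bins held 1128 counts of H3K27ac but 51 of H3K4me1 in ESCs, with 0.266% and 5.88% (1.23 to 16.2), and 1630 and 94 in RA cells, with 1.29% and 1.06% (0.0269 to 5.79). At Peg10, 10 acetylated bins held 374 counts of H3K4me1 in ESCs and 364 in RA cells, with 5.35% (3.30 to 8.14) and 4.40% (2.53 to 7.04), while the rest of that window went from 28.4% to 59.4%. At Peg3 the acetylated bins had 1.44% (0.395 to 3.66) in H3K4me1 of ESCs and 7.59% (4.48 to 11.9) in RA cells, and the rest 31.3% and 59.6%. At Mest the acetylated bins had 0 of 64 counts methylated in H3K4me1 of ESCs, which allows up to 5.60%, and 10.4% (5.79 to 16.8) in RA cells. At Impact, H3K4me1 had 13.7% (9.04 to 19.5) in ESCs and 10.9% (8.32 to 14.0) in RA cells in 14 acetylated bins, the highest of these windows. The interval overlapped that of Kcnq1ot1 in ESCs and those of Mest and Peg3 in RA cells. These values rest largely on 1 bin outside the trough (chr18:13130001-13130200), where 16 of 46 counts were methylated in ESCs and 30 of 54 in RA cells.

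**Figure D3:**
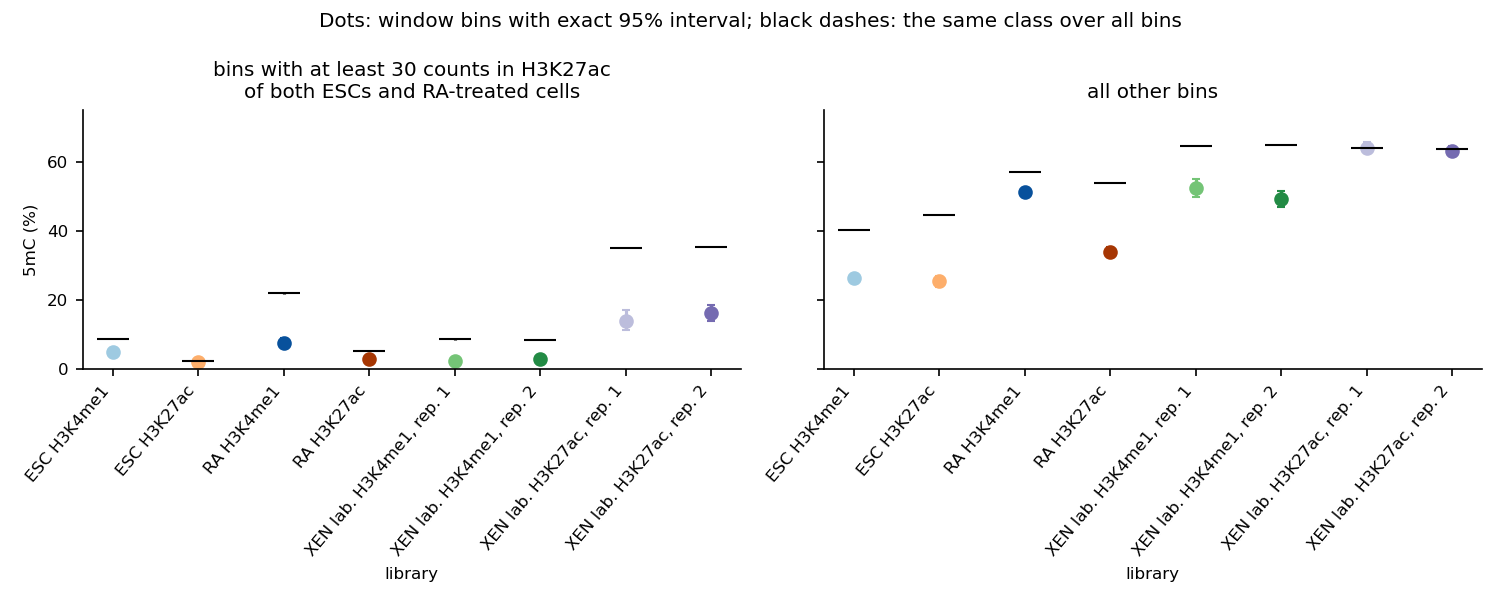
5mC (%) of the acetylated window bins (left) and of the rest (right) in each of the 8 libraries, with exact 95% intervals, and the same over all bins of the genome as black dashes. In acetylated bins the windows lie at 1.96% to 7.41% in ESCs and RA cells, and in the rest at 25.3% to 51.2%.

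The marks were next compared in the same bins, with a two-sided Fisher's exact test on methylated and unmethylated counts over all covered bins of the genome and Benjamini-Hochberg adjustment. In ESCs 24 window bins were covered in both marks. None was called at an adjusted p under 0.05 as higher in H3K4me1, beside 0.0853% of the 96096 bins of the genome, and none as higher in H3K27ac, beside 0.0146%. Without adjustment, 3 window bins had a p under 0.05 in the direction of H3K4me1 and 1 in that of H3K27ac. The median difference in the same bins was -0.397 points, and 0.427 points over the genome. The bin with the deepest lowest count at Peg10 (chr6:4697801-4698000) had 0 of 60 counts methylated in H3K4me1, which allows up to 5.96%, and 0.794% of 126 in H3K27ac. At Nnat (chr2:157392201-157392400) it was 0 of 48 and 0 of 231. At Peg3 (chr7:6683801-6684000) it was 3.85% (1.06 to 9.56) of 104 counts and 5.41% (1.49 to 13.3) of 74. So in bins deep in both marks no difference was detectable at this depth, while 7 windows as a whole were higher in H3K4me1.

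In RA cells, of 36 window bins, none was called higher in H3K4me1, beside 0.825% of 97197 bins of the genome, and none higher in H3K27ac, beside 0.0134%. Without adjustment, 4 had a p under 0.05 with more 5mC in H3K4me1 and none with more in H3K27ac. The median difference was 1.12 points, and 3.02 points over the genome. A pair of these bins outside the rule for naming, chosen after their values were seen, differed by over 20 points without being called. Over the genome 4.64% of bins were higher in H3K4me1 by over 20 points. At Igf2r (chr17:12932601-12932800) the 5mC was 50.0% (32.4 to 67.6) of 34 counts in H3K4me1 and 14.0% (5.82 to 26.7) of 50 in H3K27ac (Fisher's exact test adjusted p = 0.056). At Peg10 (chr6:4696201-4696400) it was 33.3% (19.1 to 50.2) of 39 and 6.76% (2.23 to 15.1) of 74 (26.6 points, Fisher's exact test adjusted p = 0.063). At Impact the bin with the deepest lowest count lay at the edge of the trough (chr18:13130001-13130200). It had 34.8% (21.4 to 50.2) in H3K4me1 and 42.1% (29.1 to 55.9) in H3K27ac of ESCs, and 55.6% (41.4 to 69.1) and 64.2% (49.8 to 76.9) in RA cells, so a bin in both marks was also intermediate in both. At Mest (chr6:30688601-30688800) the marks had 0 of 30 counts and 1.18% of 170 in ESCs, and 8.33% (2.32 to 20.0) of 48 and 1.25% of 80 in RA cells.

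In H3K4me1, 51 window bins were covered in both ESCs and RA cells. The test called 20 of them higher in RA cells (39.2%), beside 47.7% of the 205241 bins of the genome, and none lower, beside 1.84%. The median difference was 17.9 points in the windows and 17.4 over the genome, so the share called was below that of the genome and the median close to it. Of the 20 called bins, 6 were at Kcnq1ot1, 4 at Nnat, 3 each at Peg10, Mest and Peg3 and 1 at Impact. Of 13 acetylated bins tested 1 was called, beside 46.3% of such bins of the genome, and of the 38 others 19 were, beside 47.9%. This split was not tested. The largest difference was at Kcnq1ot1 (chr7:150475801-150476000), with 13.5% (4.54 to 28.8) of 37 counts in ESCs and 71.0% (52.0 to 85.8) of 31 in RA cells (57.5 points, Fisher's exact test adjusted p = 1.2e-05). The bin before it (chr7:150475601-150475800) had 10.2% (3.40 to 22.2) of 49 counts and 64.9% (47.5 to 79.8) of 37 (54.7 points, Fisher's exact test adjusted p = 1.4e-06). The largest at Nnat, between the troughs of that window (chr2:157390401-157390600), had 30.6% (18.3 to 45.4) of 49 counts and 71.7% (57.7 to 83.2) of 53 (41.1 points, Fisher's exact test adjusted p = 0.00028). Snrpn, H19 and Igf2r had no bin covered in both H3K4me1 libraries, and the Igf2r difference of 37.5 points rests on the window as a whole.

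In H3K27ac, 68 window bins were covered in both states, all of them acetylated bins by the way these were chosen. The test called 2 higher in RA cells (2.94%), beside 13.7% of the 81592 bins of the genome, and 2 higher in ESCs, beside 1.07%. The median difference was 0.461 points, and 0.719 over the genome. At the edge of the deeper trough of the Nnat window (chr2:157393001-157393200) the 5mC was 2.94% (0.358 to 10.2) of 68 counts in ESCs. In RA cells 12 of 63 counts were methylated there (10.2 to 30.9%), 16.1 points more (Fisher's exact test adjusted p = 0.028). At Peg10 (chr6:4697601-4697800) it was 0 of 171 counts and 5.43% (2.21 to 10.9) of 129 (Fisher's exact test adjusted p = 0.02). The largest difference the other way was at Igf2r (chr17:12935001-12935200), with 21.2% (11.1 to 34.7) of 52 counts in ESCs and 3.87% (1.43 to 8.23) of 155 in RA cells (Fisher's exact test adjusted p = 0.0038). The other was at Peg3 (chr7:6682801-6683000), with 9.30% (2.59 to 22.1) of 43 counts and 0 of 190 (Fisher's exact test adjusted p = 0.0093). At both bins that were lower in RA cells, H3K27ac counts were higher there than in ESCs.

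Of the windows with no bin covered in all 4 libraries, each has 1 bin in which the lowest count was highest. At Kcnq1ot1 this bin lay on the flank of the trough (chr7:150483001-150483200). It had 21.2% (8.98 to 38.9) of 33 counts in H3K4me1 and 15.4% (1.92 to 45.4) of 13 in H3K27ac of ESCs, and 46.4% (27.5 to 66.1) of 28 and 52.9% (27.8 to 77.0) of 17 in RA cells, so both marks were higher after treatment there by values whose intervals overlap. At Snrpn (chr7:67150001-67150200) the bin lay inside the trough, with 0 of 16 counts and 3.00% of 100 in ESCs and 0 of 48 and 0 of 23 in RA cells. At Igf2r (chr17:12935401-12935600) it had 1.72% of 58 counts in H3K4me1 and 37.5% (15.2 to 64.6) of 16 in H3K27ac of ESCs, and 14.3% (0.361 to 57.9) of 7 and 1.59% (0.193 to 5.62) of 126 in RA cells. At H19 (chr7:149764401-149764600) it had 45.5% (16.7 to 76.6) of 11 counts and 4 of 4 in ESCs, and 56.0% (34.9 to 75.6) of 25 and 62.5% (24.5 to 91.5) of 8 in RA cells, too few to set the marks apart.

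**Figure D4:**
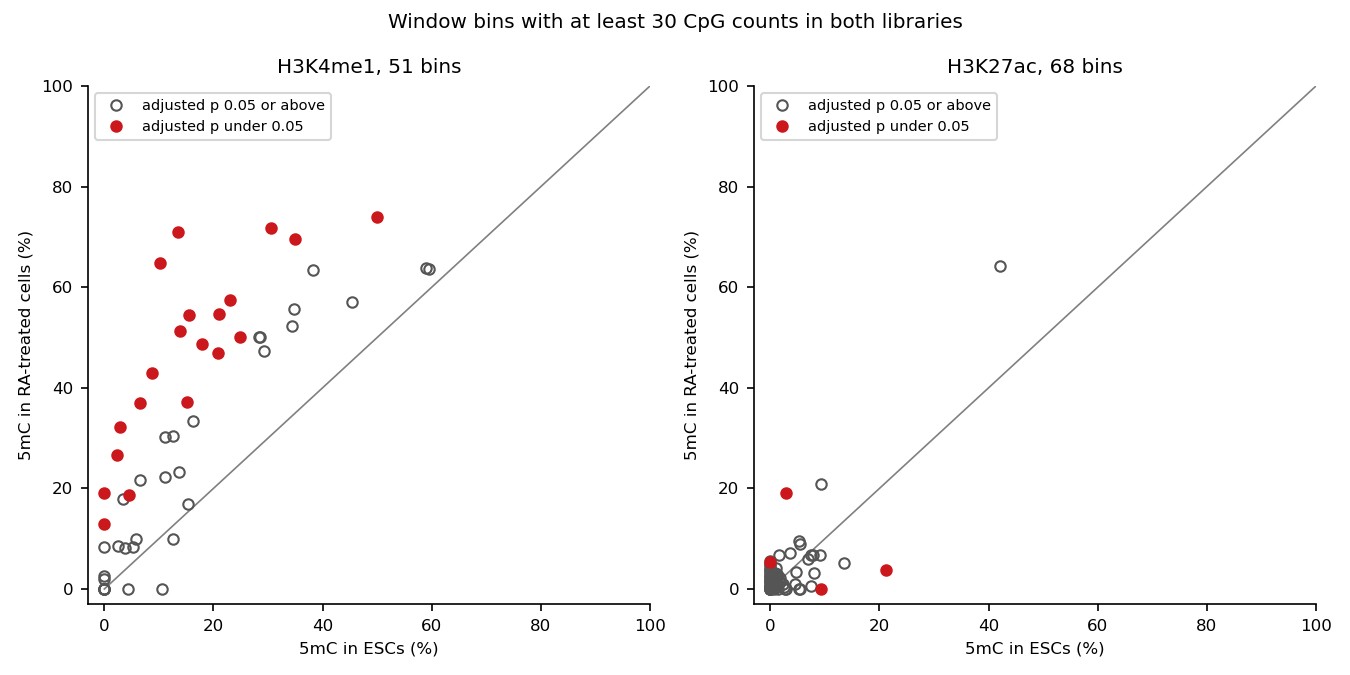
5mC (%) in RA cells against 5mC in ESCs for the window bins covered in both, 51 in H3K4me1 (left) and 68 in H3K27ac (right), with bins called by Fisher's exact test filled. In H3K4me1 the 20 called bins all lie above the line of equality, and in H3K27ac nearly all bins stay near 0% on both axes, with 2 called bins above and 2 below the line.

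The amount of each mark, as CpG counts per 1000000 counts of the library, moved differently from window to window. Igf2r gained most, from 9.70 (95% Poisson interval of counting error 8.66 to 10.8) to 58.3 in H3K27ac, 6.01 times as much in RA cells as in ESCs, and from 6.89 to 16.6 in H3K4me1. Peg3 went from 37.7 to 78.0 in H3K27ac and from 13.0 to 25.1 in H3K4me1, and Kcnq1ot1 from 39.7 to 58.9 and from 14.3 to 16.4. Snrpn went the other way, from 29.9 to 13.0 in H3K27ac and from 10.3 to 5.70 in H3K4me1, as did Mest, from 39.5 to 24.4 and from 30.9 to 22.3. Impact (78.5 and 82.5) and Nnat (61.1 and 62.6) had the most H3K27ac in ESCs, and their level in RA cells was within 1.05 times of it. A smaller share of cells with the mark and less of it in each cell cannot be told apart in these libraries.

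At Igf2r, Peg10, Peg3 and Kcnq1ot1 most of the extra H3K4me1 counts after treatment were methylated ones. At Igf2r, methylated counts per 1000000 went from 1.36 to 9.50 and unmethylated ones from 5.53 to 7.10. At Peg10 they went from 4.97 to 16.8 and from 17.7 to 18.6, and at Peg3 from 2.65 to 12.5 and from 10.3 to 12.6. At Kcnq1ot1 they went from 3.35 to 7.91 and from 10.9 to 8.54. At Impact, by contrast, methylated counts went from 3.21 to 7.08 and unmethylated ones from 8.03 to 13.5. In H3K27ac, unmethylated counts went from 7.55 to 48.9 at Igf2r and from 35.4 to 69.0 at Peg3, most of the extra counts of these windows. At Peg10 they went from 34.2 to 36.4 and methylated ones from 2.70 to 5.97, and at Impact from 73.2 to 74.8 and from 5.28 to 7.71, so there the larger part of a small gain was methylated. H19 had the least of H3K27ac, at 4.20 in ESCs and 7.03 in RA cells, with no listed bin in an H3K27ac peak in ESCs and 10 in RA cells, and its H3K4me1 was at 5.46 and 4.64. In each of the other windows 12 to 64 listed bins lay in peaks of each mark and cell state. The H19 values of 5mC therefore rest on DNA with little of either mark.

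**Figure D5:**
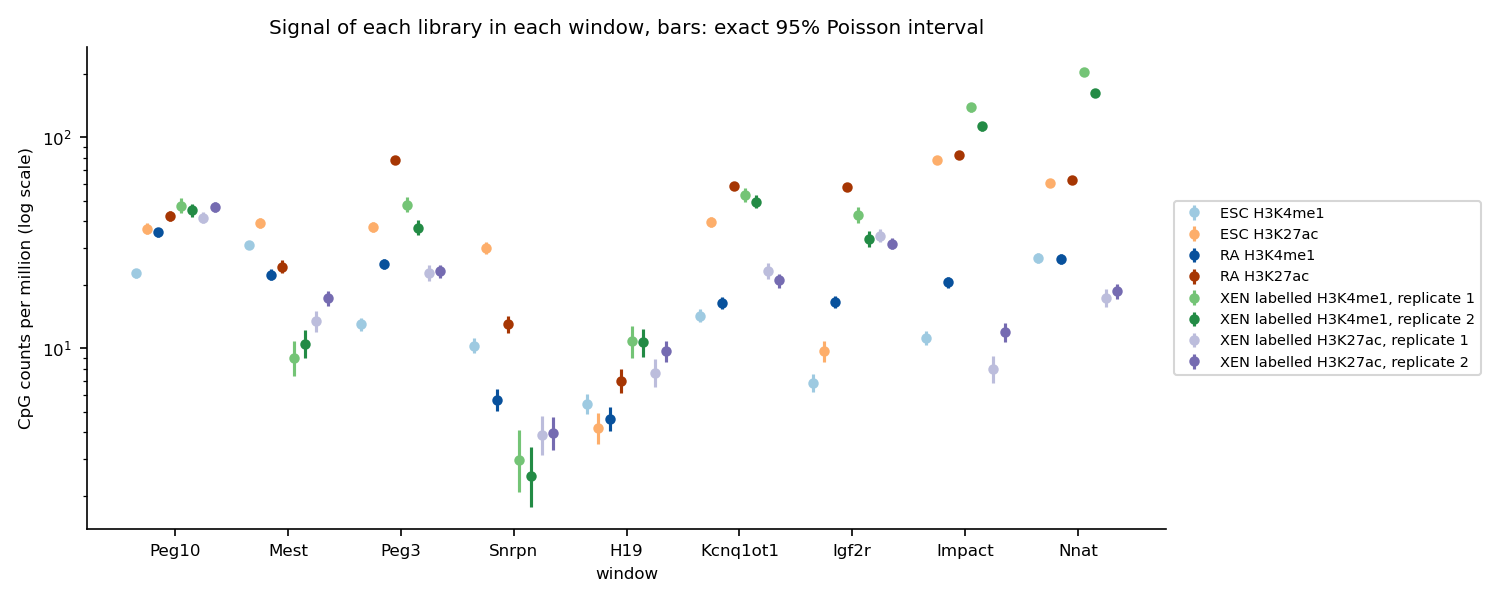
CpG counts per 1000000 (log scale) of each window in each of the 8 libraries, with exact 95% Poisson intervals of counting error. Igf2r is lowest in ESCs, at 6.89 and 9.70, after H19, but its window spans 50 bins where the others span 75, and counts are not scaled by length. The XEN libraries labelled H3K4me1 reach 203 and 163 at Nnat and 139 and 113 at Impact.

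In XEN cells the marks lay apart in most windows, in the direction opposite to RA cells by label. At Kcnq1ot1 the libraries labelled H3K4me1 had 13.9% and 8.35% 5mC, and those labelled H3K27ac 65.6% and 60.7%. At Nnat they had 3.36% and 4.96% against 54.5% and 43.9%, and at Peg3 22.3% and 17.6% against 59.8% and 61.7%. At Impact it was 4.93% and 6.56% against 34.8% and 46.1%. The replicate libraries did not overlap between the marks at these windows. At Igf2r the libraries labelled H3K4me1 had 27.9% and 30.2% and the others 63.9% and 66.2%, and at Peg10 34.9% and 33.2% against 55.3% and 55.5%, again without overlap. Thus 6 windows had both libraries labelled H3K27ac higher, as did 41.0% of 53683 tiles of the genome, and 1 window, Mest, had both labelled H3K4me1 higher, as did 15.6%. Mest had 59.6% and 58.2% in the libraries labelled H3K4me1, on 109 and 165 counts, and 29.0% and 38.5% in those labelled H3K27ac, on 307 and 543. Snrpn (27.8% and 25.6% against 32.6% and 24.2%) and H19 (58.8% and 70.8% against 79.4% and 64.3%) overlapped. With 2 libraries against 2, an exact two-sided permutation test cannot give a p under 0.333.

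The signal of the XEN libraries differed most between the labels at Nnat and Impact. Nnat had 203 and 163 counts per 1000000 in the libraries labelled H3K4me1 and 17.4 and 18.7 in those labelled H3K27ac, and Impact 139 and 113 against 7.96 and 11.9. The deepest shared bin of the Nnat window (chr2:157392201-157392400), in its deeper trough, held 1096 and 1083 counts in the libraries labelled H3K4me1, of which 0.182% and 0.0923% were methylated. At Peg10 (47.4 and 45.1 against 41.7 and 46.9) and Igf2r (42.7 and 33.1 against 34.2 and 31.4) the signal overlapped although the 5mC did not. Snrpn had the least signal in XEN cells, at 2.96 and 2.48 counts per 1000000 in the libraries labelled H3K4me1 and 3.91 and 3.96 in the others. Mest had 8.97 and 10.5 against 13.5 and 17.3, less than in ESCs or RA cells on either mark. In the acetylated bins of ESCs and RA cells, the XEN libraries labelled H3K4me1 had 2.19% and 2.64% 5mC and those labelled H3K27ac 13.9% and 16.1%, beside 8.44%, 8.39%, 35.1% and 35.4% over all such bins of the genome. Summed over the windows, the acetylated bins were thus under 20% in all 4 XEN libraries, but with at least 20 counts in place of 30 they had 22.0% and 22.4% in those labelled H3K27ac. Single windows were not all so. At Igf2r 50.0% (28.2 to 71.8) of 22 counts were methylated in labelled H3K27ac replicate 2, and at Impact 20.6% (13.9 to 28.8) of 126 in replicate 1. At Snrpn these 5 bins held 0 of 11 and 0 of 14 counts methylated in the libraries labelled H3K4me1, and 20.6% (8.70 to 37.9) of 34 and 31.2% (18.7 to 46.3) of 48 in the others, which left 5mC in XEN cells poorly known there.

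Per bin, 1 window bin was covered in all 4 XEN libraries. It was at Peg10 (chr6:4690601-4690800), outside the trough, with 66.7% and 66.7% in the libraries labelled H3K4me1 and 53.0% and 63.6% in those labelled H3K27ac (limma adjusted p = 0.7). It was not called in either direction, beside 0% of 14551 bins of the genome called higher in libraries labelled H3K4me1 and 0.00687% higher in those labelled H3K27ac. It had no unadjusted p under 0.05 either.

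Against RA cells and ESCs, a bin was counted where both XEN libraries differed from the other library by over 20 points the same way, without a test, since the XEN libraries were made apart and cell type and batch cannot be told apart. By label in H3K4me1, none of 12 window bins was higher and none lower in XEN than in RA cells, beside 2.89% and 2.15% of the genome. Against ESCs 1 of 8 was higher and none lower, beside 26.3% and 4.82%. By label in H3K27ac, 1 of 7 was higher than in RA cells and none lower, beside 20.4% and 0.182%, and 2 of 3 were higher than in ESCs and none lower, beside 62.6% and 0.284%. With marks as in the file names, more bins could be compared. None of 25 in H3K4me1 was higher or lower in XEN than in RA cells, beside 10.7% and 0.407%, and none of 35 in H3K27ac, beside 2.87% and 0.226%. The median difference in these was 6.72 points in H3K4me1 and 0.424 points in H3K27ac. Against ESCs, 8 of 11 in H3K4me1 were higher and none lower, beside 60.5% and 1.53%, and none of 32 in H3K27ac was higher or lower, beside 7.99% and 0.348%. The median difference was 33.3 points in H3K4me1, beside 30.6 over the genome, and 0.260 points in H3K27ac, beside 0. By either way of naming the marks, no window bin had less 5mC in XEN cells than in RA cells or ESCs by this rule.

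By class, 95.5% (88.9 to 98.8) of the 89 covered window bins of H3K27ac in ESCs and 91.5% (83.9 to 96.3) of 94 in RA cells were under 20% 5mC, beside 81.8% and 61.6% over the genome. In H3K4me1 it was 60.2% of 98 in ESCs and 35.9% of 92 in RA cells, beside 35.1% and 16.9%. In the XEN libraries labelled H3K4me1 it was 91.9% of 37 and 86.0% of 43, beside 66.6% and 61.6% over the genome, and in those labelled H3K27ac 3.45% of 29 and 12.1% of 58, beside 11.3% in each. Over 80% 5mC were 4.35% of the covered bins in H3K4me1 of RA cells, beside 9.67% over the genome, and none in the other 3 libraries of ESCs and RA cells, beside shares of the genome from 0.314% in H3K27ac of ESCs to 2.95% in H3K27ac of RA cells. In XEN cells it was none in the libraries labelled H3K4me1, beside 7.32% and 9.61%, and 34.5% and 22.4% in those labelled H3K27ac, beside 22.1% and 22.0%. The median covered window bin was at 1.72% in H3K27ac of ESCs, 2.84% in H3K27ac of RA cells, 14.9% in H3K4me1 of ESCs and 37.1% in H3K4me1 of RA cells. Covered bins are those where a mark is deep, so these shares speak of the DNA that each mark holds and not of the whole window.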

How the data were processed

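ChIP-BS-seq libraries of 1 line were analysed. The authors mapped reads to mm9 (Bismark, Bowtie), dropped those whose CpGs disagreed, and summed methylated and unmethylated CpGs in 200-bp bins. CpGs of a read therefore always share a state and are not independent. The deposited values are raw counts, beside HOMER peaks that carry a score, which was not used (peaks were used by position only). Whether a file of ESCs or RA cells pools the repeats that the methods describe is not stated. Columns of methylated counts stand in opposite order in the XEN files. Input, H3K36me3 and single-cell libraries were not analysed here.

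5mC was methylated over all CpG counts. Fisher's exact test compared 2 libraries per bin and covers counting error only. limma 3.58.1 in R 4.3.3 compared XEN libraries on log2((methylated + 1)/(unmethylated + 1)). Tests ran over all bins with at least 30 counts in each library, with Benjamini-Hochberg adjustment, and were tested on simulated data. Nothing says that XEN replicates were separate cultures, so their p-values may measure technical spread; their coverage differed by more than counting noise (chi-square per degree of freedom 1.36 and 1.56). Named bins were, per window, the one with the highest lowest count over the 4 libraries of ESCs and RA cells and, per test, up to 3 called bins with the largest difference each way. Windows, set by position, and lists were chosen with earlier results of these data known, and the class of acetylated bins after seeing them. Alternatives were minimums of 20 and 60 counts, differences of 20 or 30 points, bins in peaks, other class limits, other averages per window, leaving out each XEN library, the replicate block, other log offsets, Fisher's test on summed XEN counts and marks as in the file names. Values were computed with numba 0.67.0, pandas 2.3.3, numpy 2.4.6 and scipy 1.17.1 under Python 3.11.15 and drawn with matplotlib 3.10.9.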

Additional observations from a re-analysis of the deposited data

Results flagged for a closer look

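At the H19 window the change with retinoic acid had opposite signs on the marks, at 17.7 points higher in H3K4me1 and -15.6 points in H3K27ac (RA minus ESC). At Igf2r it was 37.5 points in H3K4me1 and -6.11 points in H3K27ac. With covered bins alone H3K27ac of this window was at 8.14% in ESCs and 10.7% in RA cells, but on 5 and 15 bins. In the 5 bins covered in both it was lower in RA cells, at 8.14% and 3.26%. Each of these rests on 1 library per mark and cell state, and the difference between the marks was not tested.

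The difference between marks had opposite signs in XEN and RA cells at 6 windows, where each XEN library labelled H3K4me1 was lower than each labelled H3K27ac and H3K4me1 of RA cells was the higher one. The mean difference (labelled H3K4me1 minus labelled H3K27ac) in XEN cells was -52.1 points at Kcnq1ot1, -45.0 at Nnat, -40.8 at Peg3, -36.0 at Igf2r, -34.7 at Impact and -21.4 at Peg10. These differences were not tested. With the marks of the XEN libraries as in their file names, the sign is that of RA cells at these windows. At Mest the sign by label was that of RA cells.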

How the results depend on the processing

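Counting any difference over 20 points, with no test, gave 1 of 24 window bins in each direction in ESCs and 2 of 36 higher in H3K4me1 in RA cells, where Fisher's exact test called none. Over the genome it gave 1.37% of bins higher in H3K4me1 and 1.07% in H3K27ac of ESCs, and 4.64% higher in H3K4me1 of RA cells. With at least 60 counts, H3K4me1 had 3 bins called higher in RA cells in place of 20, as fewer bins reached that depth. In H3K27ac, 6 bins were called higher in RA cells with at least 20 counts and 1 by the difference alone, beside 11.5% of the genome by the difference. Requiring both the test and 20 points left 0 in each direction. The number higher in ESCs was 0 with at least 60 counts and 0 by the difference alone, beside 0.445% of the genome by the difference. Of XEN comparisons by label, the bins higher in H3K4me1 than in ESCs numbered 2 with at least 20 counts, 0 at over 30 points and 8 with marks as in the file names. Those higher in H3K27ac than in RA cells numbered 5 with at least 20 counts, 0 with at least 60 and 0 with marks as in the file names, and those higher than in ESCs 4 with at least 20 counts, 1 at over 30 points and 0 with marks as in the file names. Leaving out 1 XEN replicate gave 1 to 4, 1 to 6 and 2 to 5 bins in these comparisons, the higher numbers without replicate 1.

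For the marks in XEN cells 1 window bin was tested, 10 with at least 20 counts and 1 to 4 without 1 replicate. None was called, and the replicate block also gave 0 in both directions, which with so few bins says nothing of stability. With at least 60 counts no window bin was tested. Same-numbered libraries did not deviate together (correlation -8.2e-05 over 14551 bins). As the deviation of a bin also holds counting noise, this cannot tell whether the numbers pair the libraries. Over the genome the replicate block called 258 bins, and 1 was called without it.

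The share of covered bins under the lower class limit was 73.5% for H3K4me1 and 98.9% for H3K27ac of ESCs with classes at 30 and 70%. With at least 20 counts it was 79.7% for H3K27ac of RA cells and 19.4% for XEN labelled H3K27ac replicate 1. With at least 60 counts it was 100.0% for H3K27ac of ESCs, 100.0% and 94.7% for the XEN libraries labelled H3K4me1 and 0% for both labelled H3K27ac. With covered bins alone, summed or averaged, 5 of 8 windows were higher in H3K4me1 of RA cells than of ESCs, in place of 9 of 9. Snrpn was at 12.9% in ESCs and 4.76% in RA cells, Mest at 21.0% and 18.8% and Impact at 33.5% and 28.2%. The covered bins were not the same ones in ESCs and RA cells, and the 6 shared by both at Mest and at Impact were all higher in RA cells. The other counts of windows higher in one library than in another stayed within 1.5 times, although single windows turned. The 5mC levels of windows moved more. With covered bins alone 55 levels left their counting intervals and 3 did not, as means over these bins 52 and 6, and without the outer 2500 bp 47 and 25. With covered bins alone, H3K27ac of RA cells at Mest was 3.54% in place of 20.9%, H3K27ac of ESCs at Kcnq1ot1 0.432% in place of 2.63%, and XEN labelled H3K4me1 replicate 1 at Peg3 3.85% in place of 22.3%.
With acetylated bins set at 20 or 60 counts, a choice added after seeing the data, H3K4me1 of these bins had 12.8% and 4.56% in RA cells. Depth limited the tests most at H19, Snrpn, Kcnq1ot1 and Igf2r, which had no bin covered in all 4 libraries of ESCs and RA cells.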
